A study of Mus musculus with 2 samples.

Results

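The cytosolic ribosomal protein genes were followed in mouse embryonic stem cells treated with ICRF-193, an inhibitor of DNA topoisomerase II. They were taken by name: every row of the deposited table named Rpl or Rps with a number, together with Rpsa, Rplp0, Rplp1 and Rplp2. The rule gave 83 genes of the 21937 in the table, namely 46 of the large subunit, 31 of the small subunit and 6 set apart as paralogs (Rpl3l, Rpl10l, Rpl36al, Rpl39l, Rps27l and Rps4y2). Rps4y2 is a synonym of Rps4l in RefSeq, where it is a transcribed pseudogene. Cells exposed to ICRF-193 at 500 nM for 16 h were set against cells exposed to the solvent DMSO for the same time. Both groups were wild type, of the strain 129Sv-C57Bl/6, and were plated without feeder cells before the treatment. Messenger RNA was sequenced, and each group is a single entry labelled as 3 replicates. The labels do not say that these are separate cultures, so all p-values measure the spread between libraries, which may be technical.

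The ribosome is built from a small subunit that reads the mRNA and a large subunit that joins amino acids, and each ribosomal protein is present in about equal amounts in the finished particle. The genes are housekeeping genes, and their mRNAs begin with a C and a run of pyrimidines (the 5' terminal oligopyrimidine tract), through which the mTOR pathway and Larp1 control their translation. Several proteins also act outside the ribosome: Rpl5 and Rpl11 bind Mdm2, the ubiquitin ligase of p53, when ribosome assembly fails.

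RefSeq promoter windows (build GRCm38.p6) were found for 57 of the 77 genes of the 2 subunits. A pyrimidine run was defined as a C followed by C or T, at least 6 bases in all, on the sense strand between 20 bases before the annotated start and 15 bases from it. A gene was counted when any of its annotated starts had the run. It was present in 37 of the 57 genes (64.9%), against 29.5% of 27025 genes. The motif CCGGAAG, on either strand of the 300-base promoter, was present in 24 of 57 (42.1%), against 9.93% of all genes. TATAA, in the 50 bases before the start on the sense strand, was found in 4 of 57 (7.02%), against 5.89%. The 35 bases around the start are shown for genes described below, with the run in capitals. Of these, 5 had lower means in ICRF-193 and 1 (Rpl37) had a lower mean and no run. The 2 others, Rps27l and Rpl27a, had slightly higher means (log2 fold change 0.16 and 0.08). None of these genes was called in the authors' deposited table.
Rpl28: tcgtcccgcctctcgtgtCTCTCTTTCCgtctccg
Rps2: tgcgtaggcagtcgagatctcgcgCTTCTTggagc
Rps25: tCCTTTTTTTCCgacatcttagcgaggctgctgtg
Rps6: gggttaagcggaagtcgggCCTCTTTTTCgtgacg
Rpl39l: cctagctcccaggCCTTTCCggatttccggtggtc
Rps27l: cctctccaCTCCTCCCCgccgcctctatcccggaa
Rpl27a: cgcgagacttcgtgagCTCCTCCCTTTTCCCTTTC
Rpl37: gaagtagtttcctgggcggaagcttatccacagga
These windows span the promoter and the first bases of the first exon. Rpl28 lies at chr7:4792945-4792979 (+ strand), Rps2 at chr17:24720043-24720077 (+ strand) and Rps25 at chr9:44407694-44407728 (+ strand). Rps6 lies at chr4:86857353-86857387 (- strand), Rpl39l at chr16:10170208-10170242 (+ strand) and Rps27l at chr9:66946066-66946100 (+ strand). Another annotated start of Rps27l, with its window at chr9:66946393-66946427 (+ strand), has no run and is not shown. Rpl27a lies at chr7:109519175-109519209 (+ strand) and Rpl37 at chr15:5116593-5116627 (+ strand). The longest of the printed runs, 19 bases, belongs to Rpl27a.

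The whole reads of each library were worked back from the deposited group means. The 6 libraries held between 27315717 and 43721198 recovered reads, and in either group the letters A, B and C run from the largest size factor to the smallest, without pairing any libraries. In both groups library A differed from the other 2. Of 10 fibroblast markers, all with reads, the summed level was 51774 normalised reads in ICRF-193 library A, against 7751 to 8795 in libraries B and C. In DMSO it was 41515 in library A, against 5155 to 6090 in libraries B and C; Lum, a defining marker, had a mean under 1 normalised read in both groups. Acta2 (30478 in ICRF-193 library A, 22938 in DMSO library A) and Col1a1 (15180 in ICRF-193 library A, 12908 in DMSO library A) made up most of these sums. Of the 10 markers, 7 were highest in library A of both groups, while Thy1 was lowest there in both and Dcn was lowest there in DMSO. All 10 stem cell markers had reads and lay below DMSO in ICRF-193, with a median log2 fold change of -0.61 in the authors' deposited table. There 3 of them were called lower, against 1.26% of all genes, and their part in the ribosomal protein values was not tested. The labels name no batch, so the split of libraries A from the others was defined from these data. The low ribosomal protein values of libraries A were known when this was done.

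No ribosomal protein gene was called changed in the authors' deposited table (DESeq, adjusted p under 0.05), but nearly all had lower means in ICRF-193 cells, by a median of 19.6%. Of the 83 genes, 0 were called lower and 0 higher, while 1.26% of the 18759 genes with reads were called lower and 5.97% higher. At an unadjusted p under 0.05, 7 of the 83 were lower (Rpl3, Rpl10l, Rpl28, Rpl37, Rpl39l, Rps2 and Rps13), against 5.38% of all genes. The deposited mean was lower in ICRF-193 for 79 of the 83. This share was 49.4% over all genes with reads and 60.5% over the 11868 genes with a mean of at least 100 normalised reads. In bulk samples, fewer cells and less RNA per cell cannot be told apart.

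The large and small subunits had similar medians. The median log2 fold change (ICRF-193 over DMSO) in the authors' deposited table was -0.34 over the 46 large subunit genes, -0.30 over the 31 small subunit genes and -0.32 over the 6 paralogs. Over all genes with reads it was 0.01, and over the 6871 genes with a mean of at least 1000 normalised reads it was -0.14. All 31 small subunit genes lay below DMSO, the nearest to 0 at -0.10 (Rps3). Of the large subunit, 44 of 46 lay below DMSO, the lowest at -0.71 (Rpl37). The interquartile range of the 77 subunit genes lay between -0.45 and -0.25, while that of genes with a mean of at least 1000 spanned -0.32 to 0.07. In limma-voom fits on the recovered reads, the medians were -0.16 for the large and -0.09 for the small subunit without ICRF-193 library A, and -0.53 and -0.56 without DMSO library A.

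**Figure D1:**
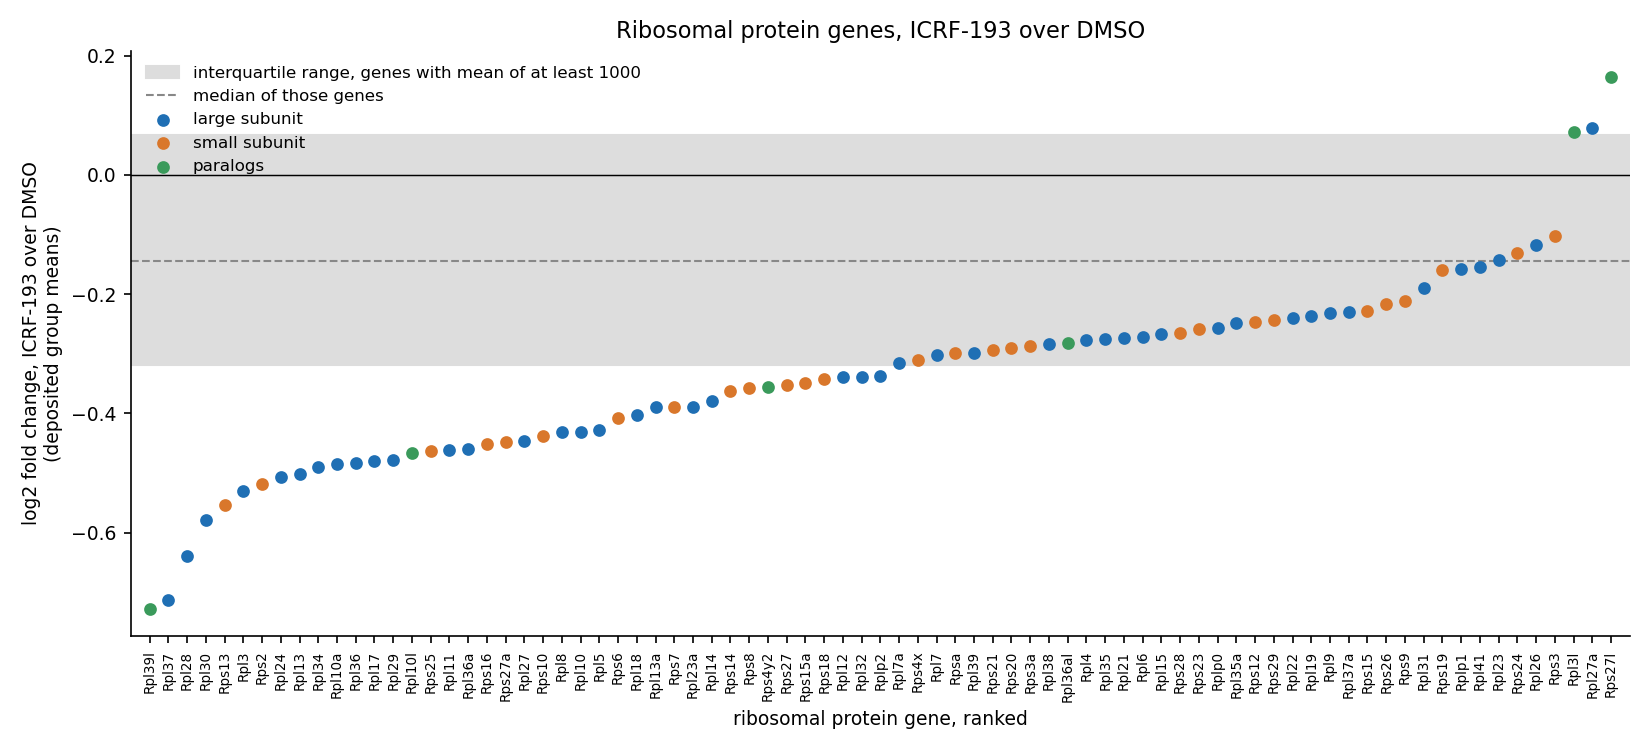
Log2 fold change (ICRF-193 over DMSO, deposited group means) of 79 of the 83 ribosomal protein genes, 1 point a gene, ranked. Of the points shown, 76 lie below 0; the grey band is the interquartile range and the dashed line the median (-0.14) of the 6871 genes with a mean of at least 1000 normalised reads.

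The reads counted on these genes were a small share of each library. How reads that match several genes were treated is not given, so the share of their mRNA cannot be read from this. The deposited means of the genes summed to 1.78% of all normalised reads in ICRF-193 and 1.96% in DMSO, and the ICRF-193 sum was 82.7% of the DMSO sum. By subunit the ICRF-193 sum was 80.8% of that of DMSO for the large subunit, 85.2% for the small subunit and 84.5% for the paralogs. The 5 most abundant genes held 52.5% of the sum in ICRF-193 and 52.2% in DMSO. For 79 genes the reads per library are known, and the 4 others (Rpl4, Rpl8, Rplp0 and Rps3) have group means only. The 79 genes took 0.793%, 1.25% and 1.22% of the reads in ICRF-193 libraries A, B and C, against 0.885%, 1.38% and 1.36% in DMSO libraries A, B and C. The groups overlap, since DMSO library A lies below ICRF-193 libraries B and C, and the means were 1.09% ± 0.256 in ICRF-193 and 1.21% ± 0.280 in DMSO (SD, n = 3 each).

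**Figure D2:**
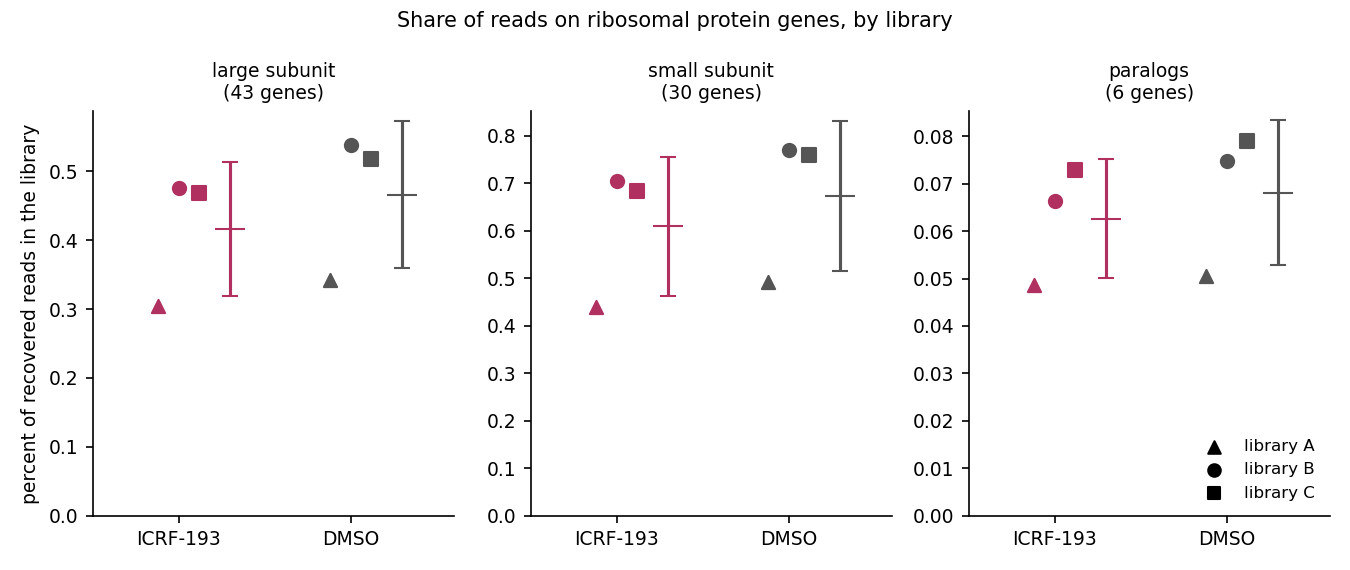
Percent of the recovered reads of each library that fall on large subunit genes, small subunit genes and paralogs, ICRF-193 left and DMSO right; points are libraries, bars are means ± SD (n = 3). Libraries A (triangles) are the lowest of each group in all 3 panels, and within libraries A and within libraries B and C the ICRF-193 points lie under the DMSO points.

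Ribosomal protein genes separated libraries A from the others by more than they separated the treatments. The split was defined with these values known, so this gap is a description and not a test. The median log2 ratio of library A over the mean of libraries B and C was -0.62 in ICRF-193, where 75 of the 79 genes were low in library A, and -0.54 in DMSO, where 76 of 79 were low. Over 11824 genes with a mean of at least 100, the same medians were -0.04 in ICRF-193 and -0.02 in DMSO. Libraries A are also those with the high fibroblast marker sums given above, and the part of those markers in the low ribosomal protein values was not tested. The fold change between treatments was of like size in both kinds of library. ICRF-193 over DMSO had a median of -0.35 over the 79 genes in libraries A and -0.30 in libraries B and C, against -0.09 and -0.10 over genes with a mean of at least 100. In 72 of 79 genes both values were below 0.

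**Figure D3:**
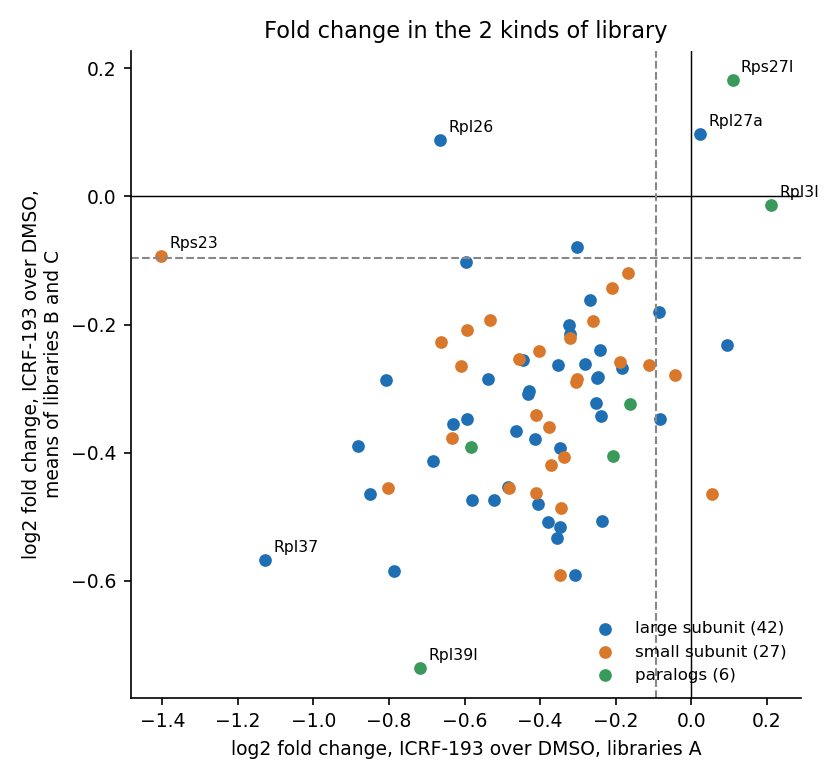
Log2 fold change (ICRF-193 over DMSO) of 75 ribosomal protein genes in libraries A (horizontal) and from the means of libraries B and C (vertical); dashed lines are the medians of genes with a mean of at least 100 (-0.09 and -0.10). Most points (69 of 75) lie below 0 on both axes, while Rps27l and Rpl27a lie above 0 on both.

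With all 3 libraries, the ICRF-193 values lay wholly below the DMSO values for 13 of 79 genes, against 15.4% of all genes. With libraries B and C alone, 68 of 79 lay wholly below, against 34.5% of all genes, and 2 (Rpl27a and Rps27l) wholly above, against 34.6%. A limma-voom fit on the recovered reads with the treatment as its only term called 0 of 78 genes lower and 0 higher, where 5.96% of 14983 genes were called lower and 9.76% higher. With a term for the split added, all 10 stem cell markers were called lower. Of the 9 fibroblast markers in that fit, 5 were called higher and 0 lower. Of the ribosomal protein genes, 62 of 78 were called lower and 1 higher (Rps27l), at an adjusted p under 0.05 over all genes. This fit called much of the transcriptome, 32.6% lower and 27.1% higher, so the count of 62 is to be read against those shares. Its split term was also defined with the values of the ribosomal protein genes known. Without both libraries A, the fit called 57 genes lower and 1 higher, against 29.8% and 24.1% of all genes. The split-term fit called 34 of 42 large subunit genes lower, 24 of 30 small subunit genes and 4 of 6 paralogs. The 14 subunit genes it did not call included Rpl9, Rpl19, Rpl23, Rpl27a, Rpl29, Rpl35 and Rpl41 of the large subunit and Rps12, Rps19, Rps23, Rps27, Rps28 and Rps29 of the small.

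Scaling shifted the count but kept the direction of the medians. The sum of all normalised reads in ICRF-193 was 91.1% of that in DMSO. With total read scaling and the split term, the median of all genes moved to 0.08 from -0.04 on the log2 scale, and that of the 78 ribosomal protein genes to -0.22 from -0.34. The calls were then 46 lower and 2 higher (Rpl27a and Rps27l), against 20.6% and 35.5% of all genes. With upper quartile scaling they were 53 lower and 1 higher, against 25.6% and 31.4%.

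Among large subunit proteins with a known role, the P stalk recruits the elongation factors to the ribosome. Its base, Rplp0, had deposited means of 50706 normalised reads in ICRF-193 and 60564 in DMSO (log2 fold change -0.26, adjusted p 0.834 in the authors' deposited table). Rplp1 had 16518, 25402 and 26486 normalised reads in ICRF-193 libraries A, B and C, against 17512, 29882 and 28924 in DMSO libraries A, B and C. Rplp2, its partner, had 3953, 5636 and 5756 in ICRF-193, against 5320, 7377 and 6686 in DMSO. Both mRNAs were lower in ICRF-193 in libraries A and in libraries B and C. The split-term fit called both lower, at log2 -0.15 ± 0.04 (SE, adjusted p 0.0120, limma) for Rplp1 and -0.34 ± 0.06 (SE, adjusted p 0.000339, limma) for Rplp2. The Rplp1 call was lost with total read scaling (adjusted p 0.618, limma) and upper quartile scaling (adjusted p 0.128, limma), both with the split term.

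Rpl5 and Rpl11, which join the large subunit with the 5S rRNA and bind Mdm2, were lower in the split-term fit. Each 36-base stretch of either coding sequence also occurs in transcripts of other genes. Rpl5 had 204, 330 and 323 normalised reads in ICRF-193 libraries A, B and C, against 357, 387 and 410 in DMSO. No ICRF-193 value of Rpl5 reached the lowest DMSO value. Rpl11 had 284, 404 and 411 in ICRF-193, against 376, 568 and 568 in DMSO, and its groups overlapped through DMSO library A. Split-term log2 fold changes were -0.45 ± 0.12 (SE, adjusted p 0.00725, limma) for Rpl5 and -0.46 ± 0.08 (SE, adjusted p 0.000749, limma) for Rpl11. Rpl23, another Mdm2-binding protein, had 3170, 4821 and 3847 in ICRF-193, against 3911, 4962 and 4198 in DMSO. The Rpl23 groups overlapped, and it was called neither with the split term (adjusted p 0.162, limma) nor without libraries A (adjusted p 0.531, limma). Rpl10, which joins the large subunit late and lies near the catalytic centre, had 316, 482 and 425 in ICRF-193, all below the 490, 595 and 565 in DMSO (log2 -0.44 ± 0.09, SE, adjusted p 0.00216, limma with the split term).

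The 5 lowest log2 fold changes of the large subunit were those of Rpl37, Rpl28, Rpl30, Rpl3 and Rpl24. Rpl37 had 292, 580 and 437 normalised reads in ICRF-193 libraries A, B and C, against 638, 885 and 621 in DMSO. Rpl28 had 187, 301 and 249 in ICRF-193, against 322, 427 and 398 in DMSO. In both genes each ICRF-193 library lay below each DMSO library. Rpl3, an ancient protein at the catalytic centre, had 539, 853 and 760 in ICRF-193, against 994, 1112 and 1001 in DMSO. Rpl30 had means of 99.9 ± 24.4 in ICRF-193 and 149 ± 8.40 in DMSO, and Rpl24, which takes part in a bridge between the subunits, 122 ± 5.55 in ICRF-193 and 173 ± 30.7 in DMSO (SD, n = 3 each). All 5 lay wholly below DMSO, as did 15.4% of all genes, and were called lower with the split term, as were 32.6%. The 5 genes were picked for the lowest values, so neither result is separate support. The authors' deposited table gives these genes log2 fold changes of -0.71 (Rpl37), -0.64 (Rpl28), -0.58 (Rpl30), -0.53 (Rpl3) and -0.51 (Rpl24), with adjusted p between 0.159 and 0.421.

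Rpl27a, Rpl26, Rpl23 and Rpl41 were among the 5 highest of the large subunit. Rpl26 had few reads, with 4.02, 6.22 and 7.86 normalised reads in ICRF-193, against 6.37, 8.93 and 4.32 in DMSO, and did not pass the filter of the fits. Its groups overlapped. Rpl27a, which had more reads, had 1203, 2025 and 1895 in ICRF-193, against 1184, 1819 and 1847 in DMSO. Each 36-base stretch of its coding sequence also occurs in transcripts of other genes. Rpl27a was slightly higher in ICRF-193 in each kind of library, at log2 0.07 ± 0.06 with the split term (SE, adjusted p 0.294, limma). It passed with total read scaling (adjusted p 0.0143, limma with the split term). Rpl41, a very short basic peptide, had 6379, 8845 and 9592 in ICRF-193, against 5972, 10204 and 11443 in DMSO. Its libraries A and its libraries B and C moved in opposite directions, and the split-term fit did not call it (adjusted p 0.157, limma), while the fit without libraries A called it lower (adjusted p 0.0190, limma).

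In the small subunit, Rpsa, also known as the laminin receptor, had 189, 362 and 336 normalised reads in ICRF-193 libraries A, B and C, against 285, 430 and 376 in DMSO (log2 -0.32 ± 0.11 with the split term, SE, adjusted p 0.0315, limma). Its call was lost with total read scaling (adjusted p 0.162, limma), with upper quartile scaling (adjusted p 0.0827, limma) and without libraries A (adjusted p 0.158, limma). Rps6, the substrate of the S6 kinases, had 270, 421 and 373 in ICRF-193, against 349, 531 and 531 in DMSO (log2 -0.40 ± 0.09, SE, adjusted p 0.00257, limma with the split term). Rps27a, made as a fusion with ubiquitin, had 481, 634 and 584 in ICRF-193, against 611, 842 and 862 in DMSO (log2 -0.44 ± 0.08, SE, adjusted p 0.000586, limma with the split term). Rps6 and Rps27a overlapped between groups only through DMSO library A, and both kept their call with either other scaling. Rps3, at the entry of the mRNA channel, had deposited means of 58941 in ICRF-193 and 63291 in DMSO (log2 fold change -0.10, adjusted p 0.999 in the authors' deposited table).

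Rps13, Rps2, Rps25 and Rps16 were among the 5 lowest of the small subunit. Rps2, near the mRNA entry, had 2206, 2375 and 2444 normalised reads in ICRF-193 libraries A, B and C, against 2807, 4043 and 3218 in DMSO. Rps25, known for its part in initiation at viral internal entry sites, had 374, 507 and 493 in ICRF-193, against 523, 696 and 674 in DMSO. Neither Rps2 nor Rps25 overlapped between the groups, while 15.4% of all genes lay wholly below DMSO. Rps13 had means of 186 ± 36.1 in ICRF-193 and 273 ± 36.3 in DMSO, and Rps16 had 3419 ± 792 in ICRF-193 and 4673 ± 1154 in DMSO (SD, n = 3 each). All 4 were called lower with the split term, at log2 fold changes of -0.56 ± 0.13 (Rps13), -0.51 ± 0.09 (Rps2), -0.46 ± 0.08 (Rps25) and -0.45 ± 0.05 (Rps16) (SE). That fit called 32.6% of all genes lower, and the 4 genes were picked for low values, so the calls are not separate support.

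The 5 small subunit genes nearest to 0 were Rps3, Rps24, Rps19, Rps9 and Rps26, and 3 of these (Rps19, Rps24 and Rps26) are mutated in human Diamond-Blackfan anaemia. Rps24 had 2716, 4236 and 4259 normalised reads in ICRF-193, against 3049, 4629 and 4598 in DMSO. Rps19 had 987, 1614 and 1451 in ICRF-193, against 1141, 1762 and 1622 in DMSO. In both genes the values were lower in ICRF-193 in libraries A and in libraries B and C, but by little. The split-term fit gave -0.13 ± 0.05 for Rps24 (SE, adjusted p 0.0308, limma) and -0.16 ± 0.07 for Rps19 (SE, adjusted p 0.0568, limma). Rps9 had means of 19882 ± 4503 in ICRF-193 and 23012 ± 4612 in DMSO, and Rps26 had 11229 ± 1485 in ICRF-193 and 13043 ± 2843 in DMSO (SD, n = 3 each). Rps9 and Rps26 were called lower with the split term (adjusted p 0.00199 and 0.0103, limma) and lost the call with total read scaling (adjusted p 0.0961 and 0.265, limma). The call of Rps24 was also lost with total read scaling (adjusted p 0.852, limma), and without libraries A (adjusted p 0.113, limma).

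**Figure D4:**
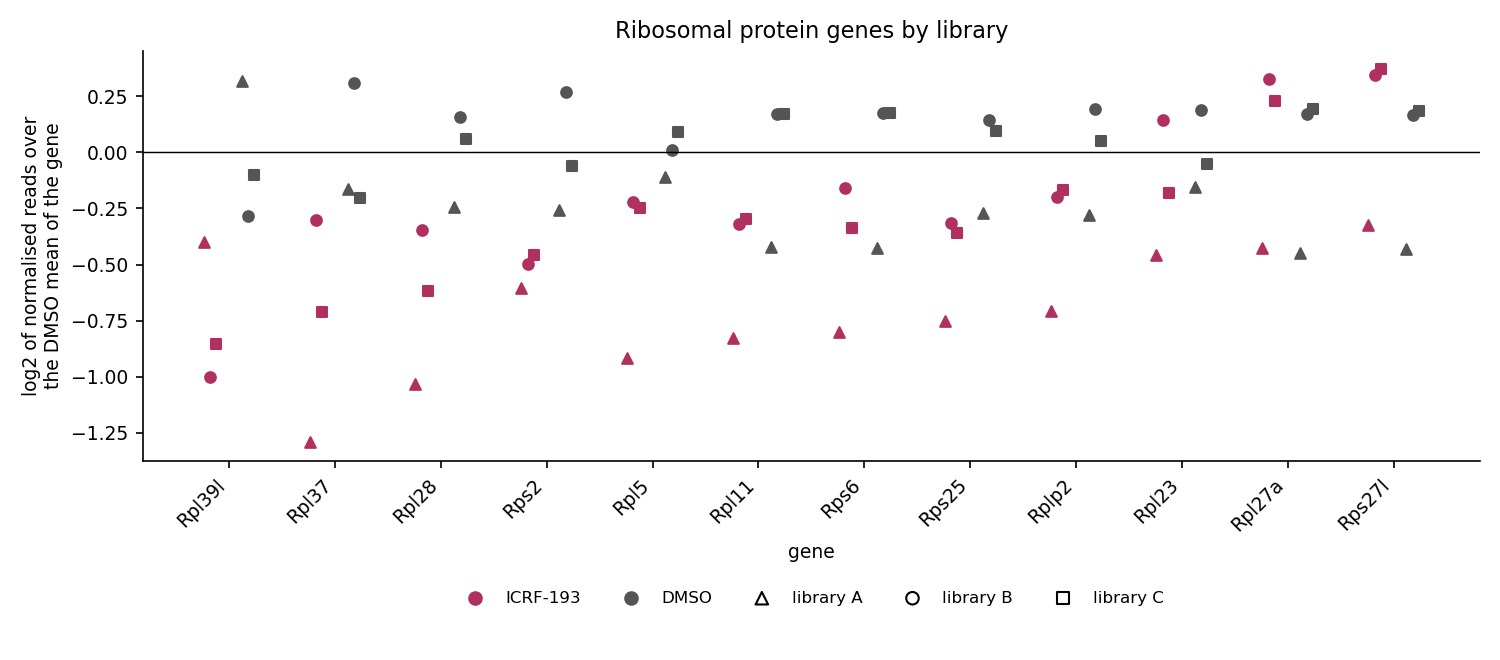
Normalised reads of 12 ribosomal protein genes in each library, as log2 over the gene's DMSO mean, ICRF-193 left and DMSO right for each gene; the symbol gives the library. Library A is the lowest of its group for 10 genes in both treatments, Rpl39l has it as the highest, and the ICRF-193 libraries B and C of Rpl27a and Rps27l lie above the DMSO ones.

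The paralogs did not form a group. Rps27l, a p53-inducible relative of Rps27, had 3612, 5730 and 5833 normalised reads in ICRF-193 libraries A, B and C, against 3348, 5064 and 5134 in DMSO. It was higher in ICRF-193 by a like amount in both kinds of library, at log2 0.11 in libraries A and 0.18 in libraries B and C. The split-term fit called it higher (log2 0.16 ± 0.05, SE, adjusted p 0.0143, limma), the fit without libraries A also (adjusted p 0.0238, limma), and the authors' deposited table did not (adjusted p 0.888). Its relative Rps27 was counted at a much lower level, with means of 102 in ICRF-193 and 130 in DMSO (78.3% of DMSO). Each 36-base stretch of the Rps27 coding sequence also occurs in transcripts of other genes. In libraries A Rps27 was slightly higher in ICRF-193 (75.3, against 72.4 in DMSO). Rps27 was not called with the split term (adjusted p 0.113, limma) and was called lower without libraries A (adjusted p 0.0486, limma). The call of Rps27l with the split term was lost without ICRF-193 library C or without DMSO library B.

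Rpl39l and Rpl10l, copies of Rpl39 and Rpl10 known for expression in male germ cells, went the other way. Rpl39l had 457, 302 and 333 normalised reads in ICRF-193 libraries A, B and C, against 751, 496 and 562 in DMSO. It had the lowest adjusted p of all 83 genes in the authors' deposited table (0.0723, log2 fold change -0.73) and was called lower with the split term (adjusted p 5.53e-05, limma). Rpl10l had 957, 744 and 833 in ICRF-193, against 1433, 991 and 1076 in DMSO (log2 -0.47 ± 0.08 with the split term, SE, adjusted p 0.000411, limma). Neither overlapped between the groups, while 15.4% of all genes lay wholly below DMSO. Unlike most subunit genes, Rpl39l and Rpl10l were highest in library A of each treatment. Their parents had lower values too, Rpl39 at 81.3% and Rpl10 at 74.2% of DMSO. Rpl36al, a copy of Rpl36a, had means of 1669 ± 303 in ICRF-193 and 2030 ± 472 in DMSO, and Rps4y2 had 11436 ± 2158 in ICRF-193 and 14633 ± 3597 in DMSO (SD, n = 3 each). Rpl3l, the striated muscle relative of Rpl3, stayed at low levels of 67.3, 45.6 and 55.0 in ICRF-193, against 58.1, 60.5 and 41.1 in DMSO, with overlapping groups.

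Many ribosomal protein genes have processed pseudogenes that carry the same sequence, and the table counts these genes at very unequal levels. The deposited means ran from 6.03 (Rpl26) to 107141 (Rpl4, DMSO) normalised reads. Per kb of coding sequence, the lowest of the large subunit was Rpl26, at 13.9 normalised reads in ICRF-193 and 15.03 in DMSO, and the highest was Rpl41, at 110293 in ICRF-193 and 122753 in DMSO. Rpl41 has a coding sequence of 75 bases, so most of its mRNA lies outside the length used. In the small subunit Rps23 was lowest, at 28.7 in ICRF-193 and 34.3 in DMSO. All 36-base windows of each coding sequence were looked up in the transcripts of other genes (GENCODE M21). Of 82 genes with a coding sequence, 81 shared windows with another gene and 53 with at least 10 genes; Rpl7a shared them with 148 genes, 146 of them pseudogenes.

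The counted level followed the share of windows found in no other gene. Of the 77 subunit genes, 32 had no such window. Rpl5, Rpl10, Rpl11, Rpl24, Rpl27a, Rpl28, Rps6, Rps13, Rps16, Rps27 and Rps27a, described above, were among them. The median of the 32 genes was 616 normalised reads per kb in ICRF-193 and 893 in DMSO. For 34 genes with a share above 0 and under 30% the medians were 4590 in ICRF-193 and 5766 in DMSO. For 11 genes with at least 30% they were 34628 in ICRF-193 and 41910 in DMSO. Spearman's rho between this share and the DMSO level per kb was 0.66 over the 77 genes, which share libraries and are not independent, and 0.67 with windows of 50 bases. How the authors treated reads that match several genes is not given in the sources used here, and the part of shared sequence in these levels was not tested. Medians of the log2 fold change in the authors' deposited table were below 0 in all 3 classes, at -0.37 with no such window, -0.33 with under 30% and -0.28 with at least 30%. All 11 genes of the last class lay below DMSO, and all 8 of them that entered the fits were called lower with the split term, against 32.6% of all genes. Scaling that fit by total reads left 5 of the 8 called, against 20.6% of all genes, and moved their median from -0.26 to -0.14. Upper quartile scaling left all 8 called, against 25.6%. The class median of -0.28 lay within the interquartile range of genes with a mean of at least 1000 (-0.32 to 0.07). Rpl4 and Rpl8, of that class, had deposited means of 88395 and 63012 in ICRF-193, against 107141 and 84980 in DMSO.

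Medians differed most with level, less with coding length and least with the promoter motifs. The 39 subunit genes with a mean of at most 1369 normalised reads had a median log2 fold change of -0.43 in the authors' deposited table, and the 38 above it -0.29. The level per kb also followed the share of windows found in no other gene (Spearman's rho 0.66 in DMSO), and level and shared sequence were not separated. The 39 with a coding sequence of at most 456 bases had a median of -0.29, and the 38 longer ones -0.37. The 37 genes with a pyrimidine run had a median of -0.32, and the 20 without one -0.29. The 24 with CCGGAAG had -0.30, and the 33 without it -0.32. These are descriptions of genes of one complex, without a test.

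Other genes of the translation machinery had medians like that of the ribosomal proteins. All 5 ribosomal proteins outside the naming rule (Fau, Gnb2l1, Rpl22l1 and Rpl7l1 among them) lay below DMSO, with a median of -0.34. The share below DMSO was 60.5% over genes with a mean of at least 100 normalised reads. The authors' deposited test called 0 of the 5, against 1.26% of all genes lower and 5.97% higher. With the split term 4 of 4 were called lower, against 32.6% of all genes. In that list Fau, a fusion with a ubiquitin-like protein, had the lowest value (log2 fold change -0.49) and Gnb2l1, the scaffold Rack1 of the small subunit, the one nearest to 0 (-0.28). A further list held 20 genes known or listed as having a terminal pyrimidine tract (elongation and initiation factors, Npm1 and snoRNA hosts). The deposited test called 1 of the 20 lower and 0 higher, against 1.26% and 5.97% of all genes. Their median was -0.34. The called gene was Hnrnpa1, a splicing regulator, with 395, 419 and 307 normalised reads in ICRF-193 libraries A, B and C, against 687, 796 and 523 in DMSO (log2 fold change -0.84, adjusted p 0.0192 in the authors' deposited table). The largest value the other way was that of Eif3l (log2 fold change 0.03), and the lowest that of Tpt1 (-1.01), which had few reads (means of 5.97 in ICRF-193 and 12.01 in DMSO). With the split term 14 of 16 of these genes were called lower and 0 higher, against 32.6% and 27.1% of all genes.

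Of 10 chaperones and carriers of free ribosomal proteins, 0 were called in the authors' deposited table, all 10 lay below DMSO (median -0.35), against 60.5% of genes with a mean of at least 100, and 9 were called lower with the split term, against 32.6% of all genes. The lowest was Bccip, the chaperone of Rpl23, at 3645 ± 453 normalised reads in ICRF-193 and 5905 ± 947 in DMSO (SD, n = 3 each), and the nearest to 0 was Aamp (log2 fold change -0.05). Of 14 genes of the mTOR and Larp1 pathway, 1 was called higher and 0 lower in the authors' deposited table, against 5.97% and 1.26% of all genes. The list median was -0.16. The called gene was Ddit4, an inhibitor of mTOR complex 1, at 5728, 8976 and 9667 in ICRF-193, against 2875, 3879 and 3777 in DMSO (log2 fold change 1.21, adjusted p 0.00363 in the authors' deposited table). The lowest of the list was Eif4ebp1, the translation repressor held inactive by mTOR, at 8183 ± 1088 in ICRF-193 and 12961 ± 2343 in DMSO (SD, n = 3 each; log2 fold change -0.66, adjusted p 0.0817 in the authors' deposited table). With the split term 7 of the 14 were called lower and 4 higher, against 32.6% and 27.1% of all genes, so the share called higher is near that of all genes.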

How the data were processed

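Per the submitters' processing notes, reads were aligned and counted with TopHat and HTSeq on build mm9 and compared with DESeq; versions, annotation, strand and the handling of reads with several matches are not given in the sources used here. The deposited table gives a signal per group (the mean of reads divided by size factors), the deposited ratio of the means as foldChange, the deposited log2 of that ratio, and the deposited p-values before and after adjustment. Its own test was the main one, in place of the planned count test, since no counts per replicate are given. Group means have 15 significant digits, from which the whole reads of 3 libraries per group were worked back for 18715 of 18759 genes (18524 with a single solution, 98.7%, and 191 with a posterior of at least 0.99). A limma-voom fit (package version 3.58.1 under R 4.3.3) with the authors' size factors took the 14983 genes that reached 10 reads in 3 or more libraries, without and with a term for libraries A. Both scripts were checked on simulated data. Of 83 genes, 74 had a single solution, 5 came by posterior (Rpl13a, Rplp1 and Rps15 among them) and 4 stayed unresolved, with 43.6% of the DMSO sum. Libraries held 27315717 to 43721198 reads, and intervals cover the spread between libraries only. Values printed as mean ± SD come from the recovered reads.

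The genes named were all paralogs, the 5 highest and 5 lowest log2 fold changes and the extremes per length in each subunit, members with known roles, and in other lists the called genes and the extremes. Members and lists were chosen with earlier results of these data known. Alternatives were other scalings, leaving out libraries, no filter, single solutions only and other thresholds. RefSeq sequences carry the build GRCm38.p6, and no coordinates of mm9 were used. A few genes of the rule and lists are counted in the totals but not reported by name, and are left out of the plots.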

Additional observations from a re-analysis of the deposited data

How the results depend on the processing

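No paired analysis was possible because the deposited columns carry no replicate numbers. The count of 0 ribosomal protein genes called lower became 1 at an adjusted p under 0.1 in the deposited test, 62 with the split term, 57 without both libraries A (29.8% of all genes), 46 under total read scaling with the split term and 53 under upper quartile scaling with it. The count called higher became 1, 1, 2 and 1 under the last 4 of these. The scalings with the split term, and leaving out libraries with it, were chosen after seeing the data. Leaving out 1 library in turn gave 0 to 2 called lower (2 without DMSO library A) and 0 called higher with treatment alone, and 52 to 61 lower and 0 to 1 higher with the split term. No filter, single solutions only and the 2 scalings without the split term left both counts at 0.

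Medians stayed below 0 under all alternatives run. With 1 library left out, the large subunit gave -0.53 to -0.16, the small subunit -0.56 to -0.09 and the paralogs -0.41 to -0.14. For both subunits the lowest value came without DMSO library A and the highest without ICRF-193 library A, by construction, since libraries A are low in these genes. The paralog median was -0.18 with total read and -0.23 with upper quartile scaling, and -0.19 and -0.24 with the split term added. The share of reads on resolved genes ranged from 1.01% to 1.24% in ICRF-193 and from 1.12% to 1.37% in DMSO. Without the 10 most abundant other genes the share of all genes was 1.84% in ICRF-193 and 2.04% in DMSO; the table holds 0 mitochondrially encoded genes to leave out.

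Of the named genes, 8 changed sign with 1 library left out: Rpl41 (-0.41 to 0.0663), Rpl27a (-0.14 to 0.31), Rps19 (-0.36 to 0.0536), Rps24 (-0.34 to 0.0857), Rps23 (-1.21 to 0.22), Rpl3l (-0.0957 to 0.21), Rps27l (-0.0470 to 0.39) and Rplp1 (-0.40 to 0.0732). Rpl41 was 0.00882 with total read scaling and Rpl3l -0.00613 without both libraries A. The cause of these changes was not tested. The other 465 values of named genes kept their direction, and 99 of them passed the threshold where the deposited test did not. The 99 include values from fits with the split term or without both libraries A. Those fits called 20.6% to 32.6% of all genes lower and 24.1% to 35.5% higher. The split was defined with the ribosomal protein values known, and the 99 values share genes and libraries, so they are not separate support.

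Of the other lists, ribosomal proteins outside the rule had 1 called lower in limma-voom, 4 with the split term, 3 without libraries A, and 2 and 4 with the split term under total read and upper quartile scaling (0 to 1 with 1 library left out). Genes with a pyrimidine tract had 3, 14 and 12 called lower under the first 3 of these, 11 under either scaling with the split term and 0 under either without it, and 0 to 4 with 1 library left out; 1 was called higher under total read scaling with the split term. The mTOR and Larp1 list had 1, 7 and 7 lower, then 5 and 7 (0 to 1), and 2, 4 and 5 higher, then 5 and 4, with 3 and 2 under total read and upper quartile scaling alone (0 to 2). Chaperones had 2, 9 and 9 lower, then 7 and 9, with 2 under upper quartile scaling alone (0 to 5). Over all genes, limma-voom called 5.96% lower and 9.76% higher, the split-term fit 32.6% and 27.1%, and the fit without libraries A 29.8% and 24.1%. With the split term these shares were 20.6% and 35.5% under total read scaling, and 25.6% and 31.4% under upper quartile scaling.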
